A study of Homo sapiens with 20 samples.

Results

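The vehicle arm of a SLAM-seq time course was followed on its own, to see which transcripts of MM1.S cells changed between 2 and 24 h of culture in DMSO when no degrader was present. Its members were chosen by label and not by any measured value: the 9 DMSO libraries, 3 each at 2, 6 and 24 h, of the 20 libraries of the series. MM1.S is an established human multiple myeloma line, and all groups carry the genotype given as WT. All 9 libraries received DMSO for the stated time and 4-thiouridine (4sU) for the last hour before harvest. The other libraries are 9 from cells given 10 nM dCBP-30, a degrader of CBP and p300, at the same times, and 2 without 4sU. Cells had been seeded before treatment, so time in DMSO, time since seeding and the harvest of each time point cannot be told apart. The replicates are numbered 1 to 3 in the labels and nothing says that they came from separate cultures, so that p-values measure the spread between these libraries, which may be technical.

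In SLAM-seq, 4sU taken up by living cells is built into RNA that is being made, and alkylation of the extracted RNA then makes the sequencer read C at those positions in place of T. Reads with such a conversion (T>C reads) come from newly made RNA, whereas all reads of a transcript together (total reads) give its steady-state level. Vehicle cells are the reference for a drug effect, yet they use up nutrients, divide and condition their medium during a day in culture. Genes that sense glucose, lipids, growth signals and cell density are known to respond to such conditions in other cells. Myeloma cells are malignant plasma cells, which secrete immunoglobulin and depend on the unfolded protein response and on the factors IRF4, PRDM1, MAF and MYC.

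Between 14758154 and 18729086 reads per DMSO library fell on 19617 genes, each represented by its transcript with the most reads. Levels are in RPM, the library-scaled counts of edgeR taken over total reads with TMM factors, and the same scale holds for T>C reads unless another is named. Equal amounts of sequence per library are compared, so fewer cells and less RNA per cell cannot be told apart. All 9 plasma cell markers examined were at 1 RPM or more at each time point, with a summed level between 6012 and 6628 RPM at 2 h, 5941 and 6124 RPM at 6 h and 5060 and 5311 RPM at 24 h. Of 20 markers of other cell types only CD3E, HBB and PECAM1 reached 1 RPM at any time point, and the summed level of all 20 was 19.7 to 22.3 RPM at 2 h, 22.8 to 29.6 RPM at 6 h and 19.9 to 24.7 RPM at 24 h. CD3D, CD4, LYZ, EPCAM, KRT19 and COL3A1, which define T cells, myeloid cells, epithelium and fibroblasts, were at 0 reads in all 9 libraries. Libraries within a time point differed in base composition. The median log2 level of genes with the GC-richest 3′ ends (the upper 20%) minus that of the GC-poorest (the lower 20%), each relative to the mean library, was -0.22, -0.09 and 0.08 for the 2 h libraries. It was 0.20, -0.05 and -0.03 for those of 6 h and 0.15, -0.07 and 0.04 for those of 24 h, and 2 h replicate 3, 6 h replicate 1 and 24 h replicate 1 were each the highest of their time point.

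Steady-state levels drifted little. Of 11450 genes tested between 24 and 2 h, 13 rose (0.114%) and 28 fell (0.245%) at an adjusted p under 0.05 (edgeR's quasi-likelihood test, Benjamini-Hochberg adjustment over all genes tested). Beyond 2-fold, 2 rose (0.0175%) and 6 fell (0.0524%). The median log2 fold change over all tested genes was -0.005, and 86.8% of genes lay within 0.5 of 0. Among the 4691 genes with a mean of at least 500 reads per library, 98.2% lay within 0.5 of 0 and 3 exceeded 2-fold by estimate. An unadjusted p under 0.05 was reached by 1462 genes, and with another tool, DESeq2, 53 rose and 82 fell past the adjusted p. Without 2 h replicate 3, 6 h replicate 1 and 24 h replicate 1 together, 133 rose and 202 fell in edgeR. These libraries had the highest GC-rich minus GC-poor value of their time points, and the setting was chosen after seeing the data. It kept 2 h replicate 1, whose value of -0.22 lay furthest from 0, so it does not stand for data without differences in base composition. The median size of change among the 41 genes was 0.68 on the log2 scale. In all 41 the 24 h libraries did not overlap those of 2 h. Genes chosen by this test from the same libraries would mostly look so, and it is no separate support.

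**Figure D1:**
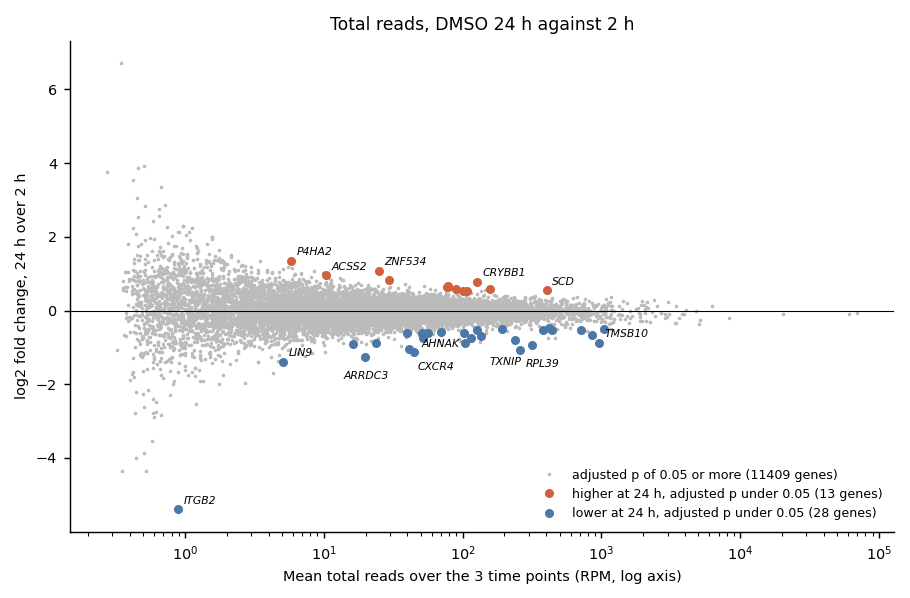
Log2 fold change of total reads between 24 and 2 h in DMSO (vertical axis) against the mean level over the 3 time points (RPM, log axis), 1 point per tested gene. The 13 genes that rose and the 28 that fell past an adjusted p of 0.05 are coloured, and most lie at the edge of the grey cloud of genes that did not pass. ITGB2, lowest of all, had few reads.

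The genes that rose included ACSS2 and SCD, which are enzymes of lipid metabolism. P4HA2, a subunit of the prolyl hydroxylase that modifies collagen and a known hypoxia-induced gene (ENSG00000072682, 3′ UTR at chr5:132190147-132193009, minus strand), stood at 2.59, 4.40 and 2.47 RPM at 2 h, 5.62, 6.73 and 6.497 RPM at 6 h and 8.20, 7.16 and 8.92 RPM at 24 h. Its 6 and 24 h libraries all lay above the 2 h libraries (log2 fold change 1.35 ± 0.29 (SE), adjusted p = 0.0462). ZNF534, which encodes a zinc finger protein, stood at 14.3, 17.3 and 19.0 RPM at 2 h, 19.3, 25.1 and 22.2 RPM at 6 h and 37.1, 39.5 and 30.5 RPM at 24 h (log2 fold change 1.08 ± 0.17 (SE), adjusted p = 0.00382). Every 24 h library of ZNF534 exceeded every library of the earlier times. Its T>C reads did not rise with them (log2 fold change -0.22, against a median of 0.48 over all genes tested in T>C reads). They made up 11.6% of its reads at 2 h and 4.93% at 24 h. P4HA2 had 6 T>C reads in the 2 h libraries together and 5 in those of 24 h, too few to be tested. ACSS2, which makes acetyl-CoA from acetate in the cytosol and nucleus, stood at 7.70, 8.17 and 5.60 RPM at 2 h, 10.1, 9.68 and 10.0 RPM at 6 h and 14.5, 12.9 and 14.6 RPM at 24 h (log2 fold change 0.97 ± 0.21 (SE), adjusted p = 0.0478). Its groups did not overlap at any of the 3 time points, although at 24 h the change did not reach 2-fold. SCD, the desaturase that makes monounsaturated fatty acids (ENSG00000099194, 3′ UTR at chr10:100360934-100364826, plus strand), stood at 338, 333 and 366 RPM at 2 h, 343, 383 and 374 RPM at 6 h and 543, 503 and 468 RPM at 24 h (log2 fold change 0.55 ± 0.10 (SE), adjusted p = 0.0144). Its 2 and 6 h libraries overlapped, and all 24 h libraries were higher.

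CRYBB1, a crystallin gene, stood at 99.0, 105 and 102 RPM at 2 h, 103, 98.9 and 108 RPM at 6 h and 155, 192 and 178 RPM at 24 h (log2 fold change 0.78 ± 0.10 (SE), adjusted p = 0.00108). Its 2 h and 6 h libraries overlapped, and those of 24 h lay above both. The remaining genes that rose were, by log2 fold change, GDF11 (0.84), a ligand of the TGF-β family, NCK2 (0.68), a signalling adaptor, ERN1 (0.64), the IRE1α sensor of unfolded protein in the endoplasmic reticulum, NABP2 (0.63), a single-stranded DNA binding protein, POLR2J3 (0.60), XRCC2 (0.57), a DNA repair gene, the tetraspanin CD82 (0.53) and CIAO1 (0.52), a factor for iron-sulphur proteins. POLR2J3 has near-identical copies in the genome, and multimapping reads were removed, so its count may rest on only part of its reads. In all 13 the 6 h mean lay between the 2 h and the 24 h mean, and in 12 it was nearer to that of 2 h on the log2 scale. For ERN1 the estimate fell to 0.27 when reads were summed over its transcripts, so that its value depends on the transcript used here.

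**Figure D2:**
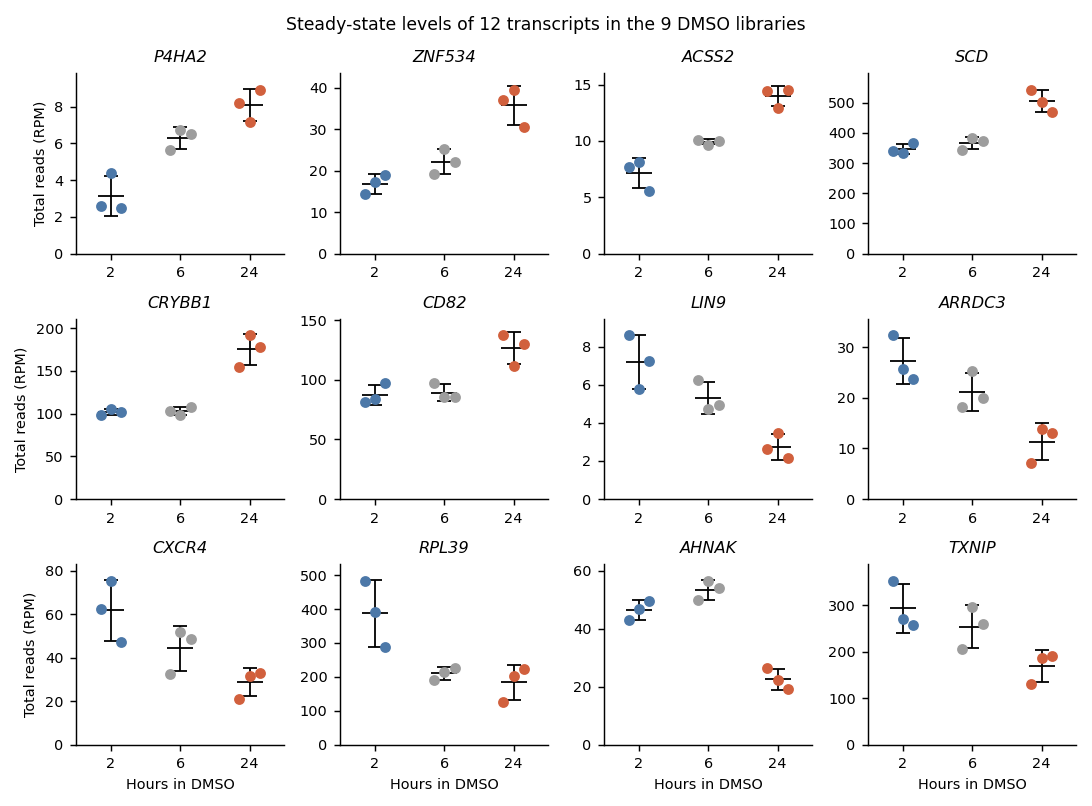
Total reads (RPM) of 12 transcripts in the 9 DMSO libraries at 2, 6 and 24 h, 1 point per library, with the mean and SD of each time point as bars. All 12 passed the adjusted p in total reads. In each panel the 3 libraries of 24 h do not overlap the 3 of 2 h, which follows from how the genes were chosen. For RPL39 and CXCR4 the 6 h libraries overlap those of 24 h.

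Among the genes that fell were ARRDC3 and TXNIP, arrestin-domain relatives known to respond to cellular glucose. ARRDC3, an arrestin-domain protein that lowers glucose uptake and receptor signalling (ENSG00000113369, 3′ UTR at chr5:91368631-91371399, minus strand), stood at 32.4, 25.7 and 23.7 RPM at 2 h, 18.1, 25.2 and 20.04 RPM at 6 h and 7.14, 13.8 and 13.1 RPM at 24 h (log2 fold change -1.26 ± 0.22 (SE), adjusted p = 0.0138). Every 24 h library lay below every earlier one. TXNIP, the thioredoxin-interacting protein that restrains glucose uptake (ENSG00000265972, 3′ UTR at chr1:145992435-145993850, minus strand), stood at 353, 269.6 and 257 RPM at 2 h, 205, 297 and 260.3 RPM at 6 h and 130.2, 187 and 190.2 RPM at 24 h (log2 fold change -0.79 ± 0.16 (SE), adjusted p = 0.0403). The 24 h libraries of TXNIP were all below those of 2 h and 6 h. Both genes are known targets of MondoA, a factor that acts when glucose phosphates are plentiful. Of the 5 tested members of the glucose-sensing list these 2 fell past the test, against 0.245% of all genes tested. This list and the others used here were written with earlier results of these data known, so such counts are no separate support. The other 3 did not pass, with log2 fold changes between -0.13 (KLF10) and 0.31 (MLXIP, which encodes MondoA itself). The carbohydrate response element through which such factors act is a pair of E boxes, and the TXNIP promoter is shown because it holds one. The window below is the TXNIP promoter in the orientation of the gene (RefSeq, GRCh38.p14, chr1:145996645-145996673, minus strand), and the capitals mark the match to the element, here CACGNG and CNCGNG with 5 bases between them, which begins 88 bases before the start site.
TXNIP: gatgtgCACGAGGGCAGCACGAGcctccg
The motif was searched on both strands from 250 bases before to 50 after each start site and was found in 143 of 27305 promoters (0.524%). The ARRDC3 window had no match to these letters.

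Of genes known to respond to glucocorticoids, CXCR4 and TXNIP fell. CXCR4, the receptor for the chemokine CXCL12 that retains plasma cells in bone marrow, stood at 62.4, 75.4 and 47.3 RPM at 2 h, 32.4, 51.7 and 48.8 RPM at 6 h and 21.1, 31.7 and 32.9 RPM at 24 h (log2 fold change -1.11 ± 0.20 (SE), adjusted p = 0.0278). Its 2 h and 24 h libraries did not overlap, and its 6 h libraries overlapped both. Of 15 genes on a list of glucocorticoid-responsive genes, 14 were tested and 2 passed the test, both lower (CXCR4 and TXNIP), against 0.245% of all genes tested. TXNIP is counted on the glucose-sensing list too. The median of the 14 was -0.38 against -0.005 over all genes, and 12 of the 14 were negative. SGK1 (-0.65), DDIT4 (-0.63) and TSC22D3 (-0.37) did not pass the test, and FKBP5 stood at 0.03. The members that did not pass were chosen after their values were seen.

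Genes induced by growth signals and cytokines, KLF2, IER5 and PIM1, also fell. KLF2, a transcription factor that is induced rapidly by signals, stood at 51.7, 48.0 and 63.9 RPM at 2 h, 74.7, 66.9 and 65.8 RPM at 6 h and 31.3, 34.6 and 32.0 RPM at 24 h (log2 fold change -0.74 ± 0.13 (SE), adjusted p = 0.0146). KLF2 was higher at 6 h than at 2 h in all libraries before standing lowest at 24 h. IER5, an immediate early gene, stood at 125, 135 and 154 RPM at 2 h, 157, 137 and 144 RPM at 6 h and 97.1, 92.3 and 96.5 RPM at 24 h (log2 fold change -0.54 ± 0.11 (SE), adjusted p = 0.0329). PIM1, a kinase induced by cytokines through STAT3 and STAT5, stood at 94.2, 112 and 130.1 RPM at 2 h, 119, 129 and 116 RPM at 6 h and 75.9, 77.0 and 69.6 RPM at 24 h (log2 fold change -0.60 ± 0.12 (SE), adjusted p = 0.0329). Its closest libraries were 77.0 RPM at 24 h and 94.2 RPM at 2 h. Of 30 immediate early genes 22 were tested, 2 fell past the adjusted p and none rose, against 0.245% and 0.114% of all genes tested, with a median of -0.26 and 17 of 22 negative. Of 16 genes of IL-6, JAK and STAT feedback 15 were tested and PIM1 alone passed the test, with a median of -0.05.

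AHNAK, LIN9, RPL39 and TMSB10 fell as well. AHNAK, a very large scaffold protein (ENSG00000124942, 3′ UTR at chr11:62515902-62516743, minus strand), stood at 43.0, 46.9 and 49.7 RPM at 2 h, 49.9, 56.7 and 54.1 RPM at 6 h and 26.4, 22.3 and 19.1 RPM at 24 h (log2 fold change -1.04 ± 0.14 (SE), adjusted p = 0.00108). Its 6 h libraries all lay above those of 2 h, and its 24 h libraries lay below both. LIN9, a subunit of the MuvB complex that regulates cell cycle genes, stood at 8.61, 5.78 and 7.27 RPM at 2 h, 6.25, 4.75 and 4.92 RPM at 6 h and 2.63, 3.48 and 2.13 RPM at 24 h (log2 fold change -1.38 ± 0.30 (SE), adjusted p = 0.0478). RPL39, a ribosomal protein of the large subunit, stood at 484, 389.9 and 287 RPM at 2 h, 189, 215 and 226 RPM at 6 h and 124, 202 and 224 RPM at 24 h (log2 fold change -1.08 ± 0.19 (SE), adjusted p = 0.0167). The 6 h libraries of RPL39 already lay below those of 2 h, and replicate 1 was the highest library at 2 h and the lowest at 24 h. RPL39 has processed copies in the genome, so its counts are uncertain. TMSB10, which binds actin monomers, stood at 1263, 1315 and 1032 RPM at 2 h, 1071, 891 and 1113 RPM at 6 h and 540.5, 699 and 728 RPM at 24 h (log2 fold change -0.88 ± 0.12 (SE), adjusted p = 0.00134). ITGB2, the β2 integrin chain of leukocytes, had 52 reads in the 3 libraries of 2 h, 75 at 6 h and 1 at 24 h (adjusted p = 0.0478), too few for a useful fold.

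The other genes that fell past the adjusted p had log2 fold changes between -0.93 (SUB1, a transcription coactivator) and -0.47 (SPCS3, a subunit of the signal peptidase). They included ITM2C (-0.66), GPRC5D (-0.69), FCRLA (-0.92), CCR1 (-0.52), a chemokine receptor, and HERPUD1 (-0.52), a factor of protein degradation at the endoplasmic reticulum. On the plasma cell identity list 22 genes were tested and none passed, with a median of -0.08, 9 positive and 13 negative. The other genes that fell were the cytoskeletal genes VIM (-0.53) and TUBB2B (-0.62), the signalling genes IGFLR1 (-0.88) and GNG7 (-0.58), the glucosylceramide synthase UGCG (-0.60), NDUFAF4 (-0.87), EPC1 (-0.61), PBXIP1 (-0.49) and HES6 (-0.51). IGFLR1 overlaps a read-through gene that also fell (ENSG00000267120, -0.74), and their reads cannot be told apart. At 6 h the mean lay between those of 2 and 24 h for 17 of the 28 genes that fell, and 25 of the 28 were nearer to 2 h than to 24 h on the log2 scale.

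At 6 h no gene passed in edgeR with all libraries and the filter on low counts. Between 6 and 2 h the smallest adjusted p was 0.321 in total reads and 1012 genes reached an unadjusted p under 0.05 (0% called, edgeR's quasi-likelihood test). DESeq2 called 1 gene higher and 2 lower beyond 2-fold, and 1 higher and 5 lower past the adjusted p. Past the adjusted p there were 10 higher and 112 lower with no filter, and 109 and 253 without 2 h replicate 3, 6 h replicate 1 and 24 h replicate 1 together. Between 24 and 6 h no gene rose beyond 2-fold (0%) and 3 fell (0.0262%) in edgeR, with 1166 at an unadjusted p under 0.05. Past the adjusted p 1 gene rose and 15 fell in edgeR. DESeq2 gave 1 higher and 3 lower beyond 2-fold, and 33 higher and 78 lower past the adjusted p. The median log2 fold change was 0.002 between 6 and 2 h and 0.004 between 24 and 6 h.

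The 41 genes kept their direction in all alternatives that tested them, whereas the number past the threshold moved. The alternatives refit the counts by which these genes were chosen, so a kept direction could hardly fail and is no separate support. Among 18 alternative settings, including each of 9 libraries left out, 8 of the 41 genes passed in at least 16. These were AHNAK, CRYBB1, TMSB10, ZNF534, IGFLR1 with its overlapping gene, ITM2C and ARRDC3. At the other end 23 genes passed in fewer than 9. P4HA2 passed in 7 of 18, ACSS2 in 5 of 18, LIN9 in 4 of 18, TXNIP in 7 of 18, CXCR4 in 11 of 18 and SCD in 13 of 18. Without 2 h replicate 1, 2 or 3 there remained 13, 10 and 31 of the 41, without 6 h replicate 1, 2 or 3 there remained 37, 17 and 11, and without 24 h replicate 1, 2 or 3 there remained 11, 14 and 11. When reads were summed over all transcripts of a gene none passed and the smallest adjusted p was 0.0714, although 39 of the 41 log2 fold changes were within 0.15 of those given here, ERN1 and ITGB2 being the exceptions, and all 41 had an unadjusted p under 0.05. With offsets for GC content 35 of the 41 passed, and RPL39 (adjusted p = 0.0841), ACSS2, LIN9, GPRC5D, TUBB2B and UGCG did not. Without the 3 libraries named above together, 39 passed.

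Beyond single genes, lists of genes were described by their medians, with no test over a list. The lists were written with earlier results of these data known. Over all genes tested 49.1% of estimates were positive between 24 and 2 h and 50.4% between 6 and 2 h. Of 36 mitotic genes all were tested, 33 had negative and 3 positive estimates, and the median was -0.32. None passed the adjusted p. The spindle protein HMMR (-0.86), the cyclin CCNB2 (-0.63), the kinase CDK1 (-0.62) and the ubiquitin-conjugating enzyme UBE2C (-0.62) were examples at the lower end. Members named here that did not pass were chosen after their values were seen. DNA replication genes had a median of 0.08, with 26 of 38 positive. Cytosolic ribosomal proteins had a median of -0.17, with 34 of 42 negative, and -0.30 with 37 of 42 negative at 6 h. Their 24 h median was -0.05 without 2 h replicate 1 and -0.006 without 24 h replicate 1. Ribosome biogenesis genes had a median of -0.09, with 28 of 32 negative. Fatty acid synthesis genes had a median of 0.30, with 8 of 10 positive. SCD and ACSS2 rose past the test, against 0.114% of all genes tested. FADS1 (0.67, adjusted p = 0.0504) and FASN (0.35) did not pass. Sterol synthesis genes had a median of 0.14, with 16 of 23 positive and none past the test.

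Chaperones and sensors of the unfolded protein response had a median of -0.13, with 21 of 26 negative. Of the 26, HERPUD1 fell and ERN1 rose past the test, against 0.245% that fell and 0.114% that rose of all genes tested. Circadian clock genes had 14 of 17 negative and a median of -0.15, NRF2 targets of oxidative stress 15 of 18 positive and a median of 0.09, and hypoxia genes 11 of 23 positive and a median of -0.04 with P4HA2 the only member past the test. Glycolytic genes had a median of 0.11, with 14 of 21 positive and none past the test. The medians of NF-κB response genes (-0.10), ATF4 targets (-0.04), heat shock chaperones (-0.03), p53 targets (0.06), interferon-stimulated genes (-0.02), oxidative phosphorylation (-0.03) and lysosome and autophagy genes (0.03) were all within 0.11 of 0, with no member past the test. The same was true of the 10 genes of CBP, p300 and the degrader's ligase, with a median of 0.04.

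**Figure D3:**
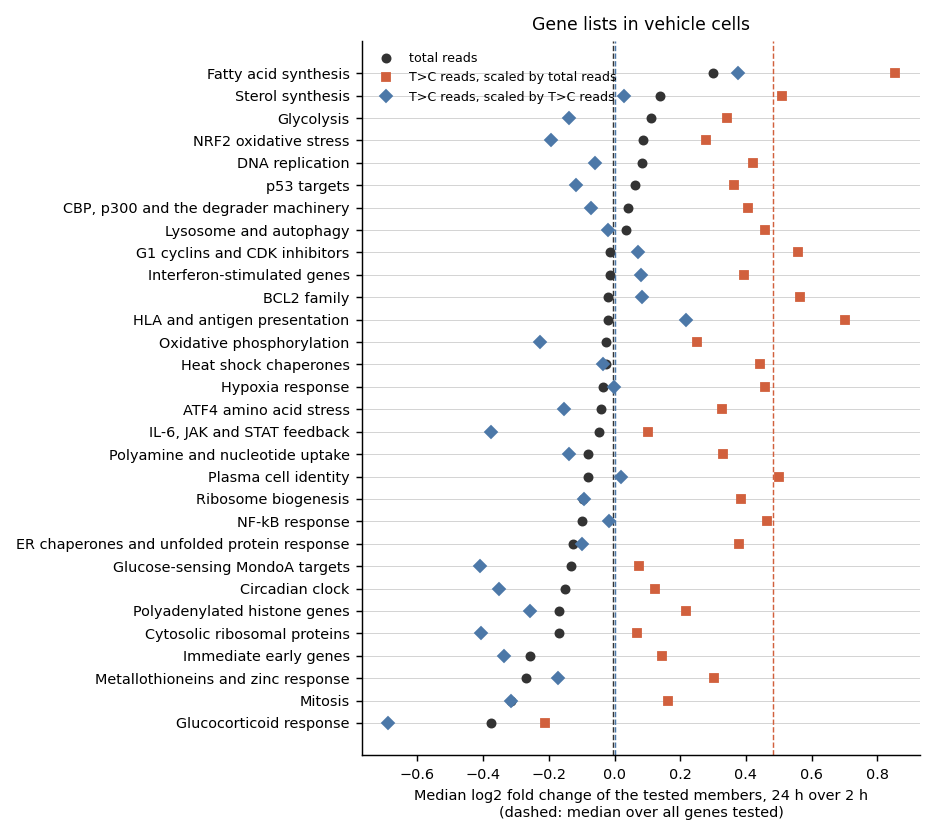
Median log2 fold change between 24 and 2 h over the tested members of each of 30 gene lists, for total reads (circles), T>C reads scaled by total reads (squares) and T>C reads scaled by T>C reads (diamonds), with the median over all genes tested as a dashed line for each. Lists of mitosis and glucocorticoid response lie lowest in total reads (medians -0.32 and -0.38) and fatty acid synthesis highest (0.30), and squares lie to the right of the circles for all lists.

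The share of labelled reads rose at 24 h. At 2 h T>C reads made up 6.13%, 5.99% and 6.12% of all reads. At 6 h the share was 6.59%, 6.24% and 6.32%, and at 24 h it was 8.62%, 8.15% and 8.17%. Both libraries that received no 4sU, the background, gave 0.794% and 0.809%. All 24 h libraries lay above all earlier ones, and the mean rose from 6.08% ± 0.08 (SD, n = 3) at 2 h to 8.31% ± 0.27 at 24 h, which is 1.37 times as much. An exact permutation test over the 3 time points gave p = 0.00357, and 24 h against 2 h alone gave the smallest two-sided p that 3 libraries against 3 allow (0.1). The number of conversions per T>C read, as the ratio of the 2 deposited columns, moved from 2.20 ± 0.02 (SD, n = 3) at 2 h through 2.17 ± 0.04 to 2.48 ± 0.03 at 24 h, and an exact permutation test over the time points gave p = 0.0179. It was 0.928 and 0.918 without 4sU, below 1, so the columns do not count exactly the same events. The share of labelled reads and the conversions in them rose together at 24 h, and their part in each other was not tested.

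**Figure D4:**
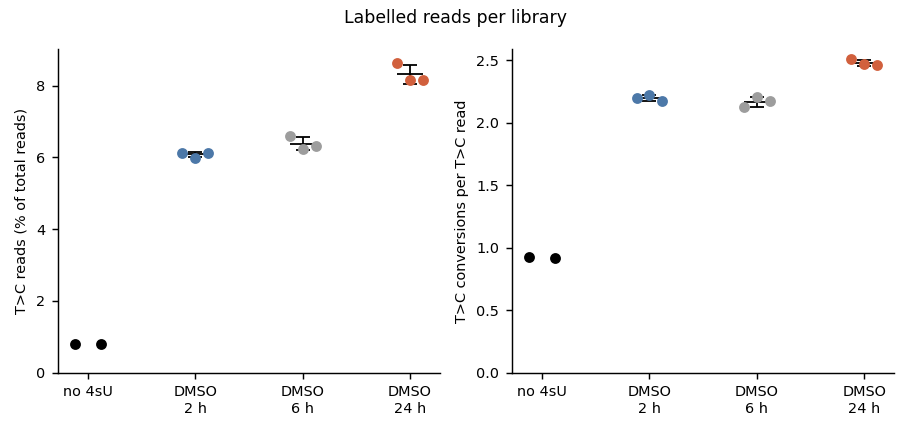
T>C reads as a percentage of total reads (left) and T>C conversions per T>C read (right) in each library without 4sU and in DMSO at 2, 6 and 24 h, with mean and SD as bars where there were 3 libraries. The 24 h libraries lie above all others in both panels.

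Of 9288 genes tested 430 (4.63%) gained T>C reads beyond 2-fold at 24 h and 3 lost them (0.0323%), and 1147 rose (12.3%) and 11 fell (0.118%) at an adjusted p under 0.05. The median log2 fold change of all genes was 0.48, and 84.6% of genes were positive. Scaled by the T>C reads themselves the median was 0.003, and 14 genes rose (0.153%) and 66 fell (0.721%) past the adjusted p, of which 7 (0.0765%) and 16 (0.175%) exceeded 2-fold. At 6 h no gene passed on either scale (0%), with 618 at an unadjusted p under 0.05 when scaled by total reads and 7 higher and 1 lower past the adjusted p in DESeq2, and 267 genes rose (2.87%) and 3 fell (0.0323%) beyond 2-fold from 6 to 24 h. On the first scale a gene that follows the library stands at 0.48, the median.

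The size of the rise followed how much of a transcript was labelled at 2 h. Genes with under 2% T>C reads at 2 h (433 genes) had a median log2 fold change of 0.87, those with 5 to 10% (2611 genes) 0.51, those with 20 to 50% (1579 genes) 0.34 and those with at least 50% (208 genes) 0.10. It also followed the number of T positions that a read covered, with a median of 0.61 in the lowest 20% of genes and 0.35 in the highest. A transcript already read mostly as T>C cannot gain in the same proportion, and the reads of 2 h enter both the share and the fold change. Genes with few T>C reads at 2 h could also pass the filter on low counts through their 24 h level. Such genes without a rise could be left out, which can lift the median of the least labelled genes.

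**Figure D5:**
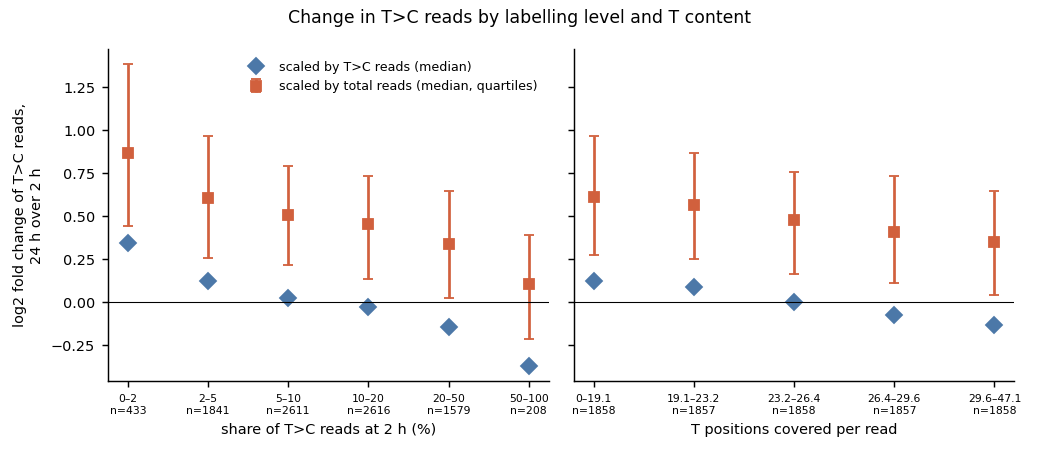
Median log2 fold change of T>C reads between 24 and 2 h (squares, with quartiles as bars) for genes grouped by their share of T>C reads at 2 h (left) and by T positions covered per read (right), and the same median scaled by T>C reads (diamonds). The medians fall from 0.87 to 0.10 across the left panel and from 0.61 to 0.35 across the right.

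The T>C reads of ARRDC3, AHNAK and RGS1 fell beyond 2-fold. ARRDC3 stood at 26.4, 19.7 and 19.1 RPM at 2 h, 14.5, 21.2 and 17.1 RPM at 6 h and 6.56, 11.98 and 9.57 RPM at 24 h of T>C reads (log2 fold change -1.21 ± 0.21 (SE), adjusted p = 8.38e-05), and 79.5% of its reads at 2 h were T>C reads. Both scales gave a fall (log2 fold change -1.68 scaled by T>C reads), and every one of 20 alternatives kept it past the adjusted p. AHNAK stood at 3.08, 3.27 and 3.47 RPM at 2 h, 4.11, 4.81 and 4.25 RPM at 6 h and 0.586, 1.60 and 0.970 RPM at 24 h (log2 fold change -1.62 ± 0.43 (SE), adjusted p = 0.00955), though only 7.02% of its reads at 2 h were T>C reads. RGS1, an inhibitor of G-protein signalling induced in activated lymphoid cells, stood at 7.70, 5.09 and 2.33 RPM at 2 h, 2.78, 1.74 and 3.04 RPM at 6 h and 1.11, 2.19 and 1.94 RPM at 24 h (log2 fold change -1.52 ± 0.42 (SE), adjusted p = 0.0127). In total reads RGS1 had a log2 fold change of -1.69 (adjusted p = 0.0617). KLF2 (-0.66), TXNIP (-0.68) and PIM1 (-0.42) fell in T>C reads too, past the adjusted p but not 2-fold. RPL39 fell as well (-0.97). CXCR4 did not pass (-0.33, adjusted p = 0.273), although it fell when scaled by T>C reads (-0.81, adjusted p = 0.0442), and its share of T>C reads was 33.2% at 2 h and 56.5% at 24 h.

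The largest fitted gains in T>C reads were in genes with 5 to 8 such reads in the 3 libraries of 2 h together. These genes entered the comparison through their level at 24 h, and their fold changes rest on those few reads. FGF18, a fibroblast growth factor, stood at 0, 0.0628 and 0.267 RPM at 2 h, 0.0632, 0 and 0 RPM at 6 h and 2.17, 2.03 and 1.16 RPM at 24 h (log2 fold change 3.93 ± 1.10 (SE), adjusted p = 0.0137). BCL2L2, an anti-apoptotic BCL2 relative, stood at 0, 0.314 and 0.200 RPM at 2 h, 0.632, 1.14 and 0.972 RPM at 6 h and 2.34, 1.71 and 2.13 RPM at 24 h (log2 fold change 3.51 ± 0.85 (SE), adjusted p = 0.00478). CREB3L4, a transcription factor of the endoplasmic reticulum, had 0.0700, 0.251 and 0.0667 RPM at 2 h, 0.253, 0.240 and 1.27 RPM at 6 h and 1.70, 1.497 and 1.81 RPM at 24 h (log2 fold change 3.59 ± 0.99 (SE), adjusted p = 0.0125). RABL2A (3.47) and MCF2L2 (3.56) completed the 5 largest. None of these 5 passed the adjusted p when scaled by T>C reads, where BCL2L2 came nearest (adjusted p = 0.0797). Their total reads did not change past the test. Genes with a flat total level also gained T>C reads, among them TOP3B, THSD8, RNF44, ARNT and SLF1, with total log2 fold changes between -0.01 and 0.01 and T>C log2 fold changes of 1.43, 1.72, 1.42, 1.19 and 1.44. None of these passed when scaled by T>C reads either (adjusted p between 0.365 and 0.466).

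Scaled by T>C reads, 14 genes rose past the test, and only 4 of them also rose past it in total reads. These 4 were SCD (0.60), XRCC2 (0.79), NCK2 (0.72) and POLR2J3 (0.56). Of the 41 genes past the test in total reads 38 were tested in T>C reads, 35 had the same sign on this scale and 17 passed in that direction. T>C reads are part of the total reads that chose these genes, so this is no separate support. Of all genes tested 0.874% passed on this scale. The losses included ARRDC3, KLF2, PIM1, KLF6 (-0.72), SGK1 (-0.99), DDIT4 (-1.13), NFKBIA (-0.75) and MYC (-0.81), and CDK1 (-1.31) and UBE2C (-0.90) of the mitotic list. This set was chosen after its values were seen. Ribosomal proteins were negative in 41 of 42 and 6 fell past the adjusted p, with a median of -0.41 against 0.003 over all genes on this scale. Scaled by total reads instead, their median was 0.07 with 24 positive and 18 negative, against 0.48 over all genes. Mitotic genes had a median of -0.31 and 31 of 36 negative on the T>C scale and 0.16 with 23 positive when scaled by total reads, and glucocorticoid-responsive genes -0.69 with 13 of 14 negative and 4 past the test on the T>C scale, against -0.21 when scaled by total reads.

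None of 10 myeloma genes and degrader targets examined changed past the test in total reads. MYC stood at 125, 128 and 120.1 RPM at 2 h, 143, 115 and 118 RPM at 6 h and 101, 91.6 and 97.4 RPM at 24 h in total reads (log2 fold change -0.36 ± 0.11 (SE), adjusted p = 0.181), and its T>C reads fell (log2 fold change -0.33 ± 0.11 (SE), adjusted p = 0.0414) with 88.1% of its reads labelled at 2 h. In T>C reads MYC passed in 7 of 20 alternatives. IRF4 had a total log2 fold change of 0.20, MAF of 0.09, PRDM1 of -0.11, PIM2 of -0.05, MEF2C of 0.03, TCF3 of 0.19, CREBBP of 0.20, EP300 of 0.16 and CRBN, the ligase substrate receptor, of -0.41, none of which passed. IRF4 stood at 251, 225 and 261 RPM at 2 h, 302, 284 and 289.5 RPM at 6 h and 280.1, 299 and 266 RPM at 24 h in total reads. MAF stood at 488, 483 and 515 RPM at 2 h, 547, 457 and 472 RPM at 6 h and 570.3, 493 and 513 RPM at 24 h in total reads. In T>C reads, where the median of all genes was 0.48, the log2 fold changes were 0.53 for IRF4, 0.66 for MAF, 0.61 for MEF2C, 0.50 for PIM2, 0.67 for EP300 and 1.07 for TCF3, all past the adjusted p. They were 0.08 for PRDM1, 0.78 for CREBBP and -0.60 for CRBN, which did not pass. These tests were against 0 and not against 0.48. TCF3 stood highest of the 10 and was 0.59 when scaled by T>C reads (adjusted p = 0.0557). On that scale IRF4 (0.05), MAF (0.18), MEF2C (0.14), PIM2 (0.02), EP300 (0.19), CREBBP (0.29) and CRBN (-1.09) did not pass either. Their adjusted p lay between 0.462 and 0.954 in edgeR. PRDM1 (-0.40, adjusted p = 0.0159) and MYC (-0.81, adjusted p = 5.55e-06) were negative and passed.

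The change from 2 to 24 h was also compared between dCBP-30 and DMSO, by a test of the difference itself. Of the 41 genes 25 differed between dCBP-30 and DMSO past the adjusted p in total reads. Of 12272 genes tested for that difference 41.1% did, and beyond 2-fold 11.1% were higher and 13.9% lower in dCBP-30. The DMSO change that chose the 41 genes is itself part of the difference and pushes it away from 0. Their count is therefore not on equal terms with the share over all genes. In T>C reads the difference passed for 25.9% of 10086 genes, and 2.61% were higher and 21.5% lower beyond 2-fold. TXNIP fell in DMSO and rose in dCBP-30 (difference 3.71 ± 0.29 SE, adjusted p = 1.37e-09). In total reads ARRDC3, RPL39 and LIN9 did not differ past the test, with differences of 0.20 ± 0.36, 0.02 ± 0.36 and -0.84 ± 0.65 (SE). In T>C reads ARRDC3 (-1.13 ± 0.36 (SE), adjusted p = 0.0132) and RPL39 (-1.39 ± 0.48 (SE), adjusted p = 0.0249) did. The median of that difference over all genes tested in T>C reads was -0.72. Whether these 2 genes differ from that median was not tested.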

How the data were processed

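The 9 DMSO libraries were analysed from the tables that the authors deposited, 1 per library, which hold whole-number counts of total reads, of reads with T>C conversions and of conversions per transcript. The authors trimmed reads with Trim Galore, mapped them to 3′ UTRs of hg38 with Slamdunk, removed multimapping reads and collapsed counts per transcript. Here transcripts were matched to GENCODE genes (89088 of 97466 rows, 91.4%), and each gene was represented by its transcript with the most total reads over all files. They were fitted together with edgeR 4.0.16 (R 4.3.3; quasi-likelihood, robust; filterByExpr, minimum count 10; TMM), with DESeq2 1.42.0 and the other settings given at the end as alternatives. T>C reads were scaled by total reads or by T>C reads. Genes were called at an adjusted p under 0.05, with counts beyond 2-fold given too. Single values were compared by exact permutation over libraries.

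Genes were named by rule: the largest changes past the threshold on each readout with at least 50 total or 20 T>C reads on average in the higher time point and no overlap between libraries of both times, list members past the threshold, a set of myeloma genes, and genes whose T>C reads changed at a flat total level. All genes past the threshold in total reads are named in addition, and others are marked as chosen after their values were seen. The members and lists were chosen with earlier results of these data known. Data were simulated with 200 genes changed between 24 and 2 h, among 11450 in total reads and 9288 in T>C reads. Recovered were 36% of 1.5-fold, 70.5% of 2-fold and 90.5% of 4-fold changes in total reads, and 0%, 28.5% and 73.5% in T>C reads. Unchanged genes that passed numbered 6, 15 and 18 in total reads and 0, 2 and 5 in T>C reads. Genes were drawn independently and without a shift shared by all genes, whereas the T>C reads here had a median of 0.48. The study added labelled Drosophila RNA to each sample as a spike-in, which was not used here. Replicates differed by more than counting error (chi-square over degrees of freedom 8.54 to 28.4).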

Additional observations from a re-analysis of the deposited data

Results flagged for a closer look

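The change from 2 to 24 h differed between dCBP-30 and DMSO past the adjusted p for the genes listed here, by edgeR's test of the difference itself over the 18 labelled libraries. Values in parentheses are differences in log2 change, dCBP-30 minus DMSO, and each change was measured from the 2 h libraries of its own treatment. For genes chosen by their change in DMSO, that same change is part of the difference. Of the genes that rose in total reads in DMSO, those that differed were CD82 (-1.03), CRYBB1 (-4.87), NABP2 (-1.44), NCK2 (-1.08), SCD (-2.10), XRCC2 (-3.50) and ZNF534 (-2.84). SCD changed by -1.56 in dCBP-30 and ZNF534 by -1.76, so that both went down there. Of the genes that fell in DMSO, the difference was positive for EPC1 (1.10), IER5 (0.81), ITGB2 (5.91), KLF2 (0.87), TMSB10 (0.64), TXNIP (3.71) and UGCG (1.27). TXNIP went up in dCBP-30, by 2.92, whereas the change of KLF2 there was 0.13. ITGB2 had few reads, and its difference is uncertain. The difference was negative for AHNAK (-0.71), CCR1 (-2.36), ENSG00000267120 (-0.96), GPRC5D (-2.97), HES6 (-3.74), IGFLR1 (-1.21), ITM2C (-1.07), PBXIP1 (-1.15), SPCS3 (-1.47), SUB1 (-1.13) and TUBB2B (-1.05). AHNAK changed by -1.76 in dCBP-30.

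Among the other genes named, the differences in total reads were ARNT (0.70), CREBBP (0.86), EP300 (1.35), IRF4 (-1.69), MAF (-1.78), MEF2C (-0.80), MYC (-1.54), RABL2A (1.38), RGS1 (3.08), SLF1 (-2.28), TCF3 (-1.80) and THSD8 (-1.88). In T>C reads the differences were ARRDC3 (-1.13), BCL2L2 (-3.05), CCR1 (1.28), CIAO1 (-1.49), CRBN (2.08), CREB3L4 (-3.67), CRYBB1 (-2.96), ENSG00000267120 (-1.68), EP300 (0.82), ERN1 (-0.98), FGF18 (-5.15), GDF11 (-2.61), GPRC5D (-2.78), HERPUD1 (1.00), HES6 (-1.67), IRF4 (-1.03), MAF (0.93), NABP2 (-2.47), PIM2 (1.27), POLR2J3 (-1.91), RABL2A (-3.37), RPL39 (-1.39), SCD (-2.60), SLF1 (-4.37), SPCS3 (-1.09), SUB1 (1.04), TCF3 (-1.44), THSD8 (-4.06), TOP3B (-1.997), TXNIP (2.77), VIM (0.95), XRCC2 (-4.42) and ZNF534 (-2.59), against a median of -0.72 over all genes tested in T>C reads and of 0.02 in total reads. ARRDC3 changed by -2.34 in T>C reads in dCBP-30 (adjusted p of the difference = 0.0132). Of the 5 genes with the largest gains of T>C reads in DMSO, MCF2L2 did not pass (-2.19, adjusted p = 0.214).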

How the results depend on the processing

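Counts are given as higher and lower genes. For total reads between 24 and 2 h, those beyond 2-fold and those past the adjusted p were 5 and 12, and 32 and 55, at an adjusted p under 0.1. They were 6 and 15, and 53 and 82, with DESeq2, 1 and 3, and 7 and 15, with a minimum mean count, 8 and 15, and 64 and 134, with no filter, and 0 and 0, and 0 and 0, when summed over transcripts (edgeR; 1340 genes at an unadjusted p under 0.05). All 18 labelled libraries gave 15 lower past the adjusted p, and fitting without TMM gave 5 higher beyond 2-fold and 22 higher past the adjusted p. Without DMSO 2 h replicate 3, 6 h replicate 1 and 24 h replicate 1 together they were 8 and 23, and 133 and 202. The replicate numbers did not pair the samples (correlations of same-numbered libraries between -0.33 and 0.26), and the replicate block gave 1 and 3, and 3 and 9. Between 6 and 2 h DESeq2 gave 1 and 2, and 1 and 5, no filter gave 1 and 8, and 10 and 112, and leaving out those 3 libraries gave 10 and 13, and 109 and 253. Beyond 2-fold between 24 and 6 h there were 3 and 5 at an adjusted p under 0.1, 1 higher with DESeq2 or with GC offsets, 2 higher with all 18 libraries, 7 higher with no filter, and 7 and 5 without those 3 libraries.

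For T>C reads between 24 and 2 h the counts were 667 and 6, and 1892 and 20, at an adjusted p under 0.1, 247 and 1, and 538 and 3, with all 18 libraries, 7 and 16, and 14 and 66, when scaled by T>C reads, and 125 and 1, and 208 and 1, when summed over transcripts. Past the adjusted p there were 7 lower after background subtraction and 668 higher without those 3 libraries. Between 6 and 2 h DESeq2 gave 7 higher and 1 lower past the adjusted p, and leaving out those 3 libraries gave 1 higher. Beyond 2-fold between 24 and 6 h there were 436 and 10 at an adjusted p under 0.1, 5 lower with DESeq2, 131 higher with all 18 libraries, 0 and 6 when scaled by T>C reads, 0 and 0 when summed over transcripts and 145 and 1 without those 3 libraries. For the difference between treatments there were 2617 and 1033 in total reads without TMM, 636 and 895 in T>C reads scaled by T>C reads, and 490 and 1219 without TMM.

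With each library left out in turn, total reads between 24 and 2 h gave 0 to 3 higher and 1 to 12 lower beyond 2-fold, and 2 to 28 and 7 to 35 past the adjusted p. Between 24 and 6 h they gave 0 to 1 and 2 to 4, and between 6 and 2 h 0 and 0, with 0 and 0 to 1 past the adjusted p. T>C reads gave 203 to 547 and 0 to 5 between 24 and 2 h, with 501 to 1303 and 3 to 11 past the adjusted p, 99 to 334 and 1 to 5 between 24 and 6 h, and 0 to 2 and 0 between 6 and 2 h, with 0 to 4 and 0 past the adjusted p. The T>C share differed by 2.07 to 2.31 percentage points and conversions per T>C read by 0.269 to 0.294. Scaled by T>C reads, many genes with a small gain in T>C reads reversed sign, among them HERPUD1 (-0.46), PRDM1 (-0.40), IER5 (-0.46) and VIM (-0.30). Over all genes tested 7859 were positive and 1429 negative when scaled by total reads, and 4591 and 4565 when scaled by T>C reads. The causes were not tested. With 3 libraries per time point, many changes of 1.5-fold would be missed.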
